A study of Mus musculus with 4 samples.

Results

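Nrf2 binding was examined at the genes for glutathione synthesis and cystine uptake, Gclc, Gclm, Gss and Slc7a11, in mouse esophagus. They were taken by gene symbol from a table of peak heights from chromatin immunoprecipitation followed by sequencing (ChIP-seq), in which all 4 have a row among the 1940 listed genes. Whole esophagus came from C57BL/6 mice with the genotypes Wild-type, Nrf2KO (knockout of Nrf2) and Keap1KO (knockout of Keap1). Each genotype gave 1 library, precipitated with the same antibody to Nrf2, and the remaining sample was pooled input DNA, which has no column in the table. The age of the mice, the number pooled per library, and the alleles or cells in which the genes were deleted are not stated in the labels. In whole tissue, fewer bound cells and less binding per cell cannot be told apart. The table holds binding and no expression, so the tissue label could not be set against marker genes.

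Glutathione is a tripeptide thiol that cells use to reduce peroxides and to conjugate reactive compounds. The plasma membrane exchanger encoded by Slc7a11 imports cystine, which yields the cysteine that limits synthesis. Glutamate-cysteine ligase, made of the catalytic subunit Gclc and the modifier subunit Gclm, performs the first and rate-limiting step, and glutathione synthetase (Gss) adds glycine in the last. Nrf2 (gene Nfe2l2) is a transcription factor that pairs with small Maf proteins and binds the antioxidant response element, and Keap1 directs it to degradation. The genes of glutathione synthesis are classical Nrf2 targets, and in the esophagus the pathway is known for its activity in the squamous epithelium.

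Heights are the average peak height of a gene over its active regions, which are called intervals merged between libraries. The table gives no unit, and the depth of each library is unknown, so no counting error can be attached to a height. With 1 library per genotype there is no replicate spread and no test. Over 1460 loci (regions listed under the same genes), median heights were 5 for the wild-type library, 4.33 for Nrf2KO and 18 for Keap1KO. The deleted genes themselves had rows, with heights of 17 (wild-type), 7 (Nrf2KO) and 78 (Keap1KO) at Nfe2l2 and of 6.33, 7.67 and 19.33 at Keap1. Binding near these genes does not check the deletions. Every gene of the group was listed through an interval called in Keap1KO, as were 99.1% of all rows, which selects Keap1KO heights upwards. Interval positions are in mm10, and 1649 of the 1727 fell on a common 16 bp grid, which limits how finely a position can be read.

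The 4 genes carried 11 called intervals, 10 of them from Keap1KO and 1 from wild-type. In the whole table, 1671 of the 1727 intervals were from Keap1KO and 56 from wild-type, so this split is near that of the table. Of the 11 intervals, 5 lay upstream of a gene and 6 within one, which is not set beside a share for all intervals. The table does not give exons or introns. The intervals made up 10 active regions, and 2 of the 10 lay within 1 kb of the start of the gene they are listed under, against 28.0% of all regions by their nearest start. Gclc had 2 regions, Gclm 1, Gss 4 and Slc7a11 3. Thus 3 of the 4 genes had at least 2 regions, against 13.4% of all rows. Only 6 rows of the table had 4 regions or more, Gss among them. Rows with at least 2 regions had a median gene length of 43329 bp, against 25576 bp for all rows. Of these 3 genes, Gclc (39954 bp) and Gss (29523 bp) were shorter than the first of these medians and Slc7a11 (78677 bp) was longer. All 3 were longer than the median of all rows, whereas Gclm (21056 bp), with 1 region, was shorter. Whether gene length accounts for the number of regions was not tested.

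**Figure D1:**
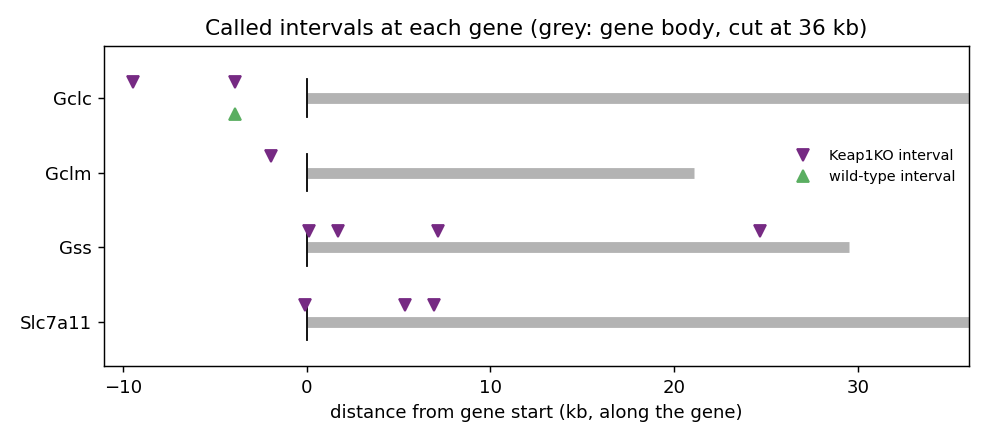
Position of each called interval relative to the gene start, in kb along the direction of the gene, with Keap1KO intervals above and the wild-type interval below each gene body. The intervals of Gclc and Gclm lie upstream of the gene, those of Gss lie inside it, and those of Slc7a11 lie at its start and inside it.

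The cystine uptake gene, first in the pathway, had the highest Keap1KO over wild-type ratio of the 4 genes. Slc7a11 (GeneID 26570, chr3:50364936-50443613, minus strand) had the same height of 3.67 for the wild-type and Nrf2KO libraries and 29.67 for Keap1KO. On the mean over the regions of the gene, wild-type was thus level with the Nrf2KO library, and Keap1KO stood above both. With a pseudocount of 1 added to each height, Keap1KO was 6.57-fold above wild-type (log2 2.72) and 6.57-fold above Nrf2KO.

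Its 3 Keap1KO intervals lay 83 bp upstream of the start (position 50443696), and 5373 bp and 6941 bp into the gene (positions 50438240 and 50436672). The heights of the 3 regions summed to 89 in Keap1KO, against 11 in wild-type and 11 in Nrf2KO. The sums of 11 could not be divided between the regions, so a difference at a single region is not excluded. The table also lists the tallest height of a gene, which was 48 in Keap1KO, or 53.9% of the sum. The other regions of Slc7a11 summed to 41, a mean of 20.5. The table does not say which of the regions was the tallest.

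The interval 83 bp upstream of Slc7a11 lies within the RefSeq promoter window (GRCm38.p6, chr3:50443564-50443863, minus strand). It was the only interval to fall in the window of its gene, among the 3 genes with a window. The sequence is shown for that reason. Each window runs from 250 bp before the RefSeq first base to 50 bp after it. At Slc7a11 this base (50443613) is also the start from which interval distances are counted. At Gclm the first base is 122245557 against a start of 122245592, and at Gss 155592810 against 155592706. The antioxidant response element was searched on both strands as TGACNNNGC, its core letters, and as the looser TGANNNNGC, of which every TGACNNNGC is a case. Capitals mark matches to TGANNNNGC, read on either strand, and in Gclm the match is also one to TGACNNNGC.
Slc7a11: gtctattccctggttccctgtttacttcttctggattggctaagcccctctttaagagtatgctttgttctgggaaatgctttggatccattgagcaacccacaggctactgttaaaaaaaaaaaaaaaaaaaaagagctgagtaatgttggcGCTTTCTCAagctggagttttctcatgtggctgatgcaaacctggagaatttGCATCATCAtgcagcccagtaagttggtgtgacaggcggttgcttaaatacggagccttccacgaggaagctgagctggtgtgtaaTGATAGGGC
Gclm: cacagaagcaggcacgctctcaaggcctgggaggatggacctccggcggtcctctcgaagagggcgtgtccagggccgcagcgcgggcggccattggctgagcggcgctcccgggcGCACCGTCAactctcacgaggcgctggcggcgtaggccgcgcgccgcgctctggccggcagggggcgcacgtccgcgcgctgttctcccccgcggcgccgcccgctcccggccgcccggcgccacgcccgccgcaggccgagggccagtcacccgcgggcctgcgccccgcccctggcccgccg

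The Slc7a11 window held no TGACNNNGC and 3 matches to TGANNNNGC. Read along its own strand, the first match is TGAGAAAGC, whose centre lies 10 bp from the interval position, within the 16 bp grid. The next is TGATGATGC, with its centre 42 bp from that position, and the last, TGATAGGGC, lies 128 bp from it, beyond the gene start. In the 43 regions called in both libraries, positions lay a median of 56 bp apart, so distances of 10 bp and 42 bp cannot be told apart. At least 1 TGANNNNGC was present in 41.3% of the 32851 RefSeq promoter windows of the same length, so its presence in 1 window is common. The matches are descriptions of letters and not shown to be binding sites.

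The Gclm window (chr3:122245307-122245606, plus strand) is shown as a contrast, because it held the stricter core, TGACGGTGC on the opposite strand, while the called interval lay outside it. TGACNNNGC was present in 12.4% of all windows. The motif centre was 1747 bp from the Gclm interval. The Gss window, set from the RefSeq first base, held neither form. Among the 149 windows of listed genes with one of the gene's own intervals inside, 37.6% held TGACNNNGC and 57.7% held TGANNNNGC. Windows were given for 3 of the 4 genes.

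The genes of the 2 subunits of glutamate-cysteine ligase differed in height. Gclc (GeneID 14629, chr9:77754535-77794489, plus strand) reached 56.5 in Keap1KO, against 13.5 in wild-type and 4 in Nrf2KO. It was the highest of the group in wild-type and in Keap1KO, and it was the only one whose wild-type height stood above the wild-type median of all loci. Among the 1460 loci it ranked 31 in Keap1KO and shared rank 29.5 in wild-type, whereas in Nrf2KO it shared rank 828.5. Keap1KO was 3.97-fold above wild-type (log2 1.99) and 11.5-fold above Nrf2KO (log2 3.52). Wild-type was 2.90-fold above Nrf2KO (log2 1.54).

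Gclc was also the only gene of the 4 with an interval called in wild-type, 3895 bp upstream of its start (position 77750640). Of all rows, 4.18% had such a call. The nearer of its Keap1KO intervals lay 3911 bp upstream (position 77750624), 16 bp or a single grid step from the wild-type one. In the 43 regions of the table called in both libraries, the median distance between the positions was 56 bp, and in 10 it was no more than 16 bp. The other Keap1KO interval lay 9439 bp upstream (position 77745096), 5528 bp farther out, and had no wild-type counterpart.

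The Keap1KO signal at Gclc was concentrated in 1 of its regions. The tallest height was 94, which leaves 19 for the other region, a ratio of 4.95. Over the 198 rows with 2 regions and their tallest height in Keap1KO, the median of this ratio was 1.46, and Gclc ranked 9. Only 24 rows of the table had a taller region than Gclc. The table does not say which region had the 94, and the wild-type sum of 27 and the Nrf2KO sum of 8 could not be divided between them.

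Gclm (GeneID 14630, chr3:122245592-122266648, plus strand) reached 28 in Keap1KO, against 5 in wild-type and 2 in Nrf2KO. Its single region, called in Keap1KO, lay 1912 bp upstream of the start (position 122243680) and is listed under no other gene. In wild-type Gclm was at the median of all loci, in Nrf2KO it was the lowest of the 4 genes, and in Keap1KO it ranked 219. Keap1KO was 4.83-fold above wild-type (log2 2.27) and 9.67-fold above Nrf2KO (log2 3.27). Wild-type was 2.00-fold above Nrf2KO, exactly at the 2-fold limit, and at heights of 5 and 2 a change of 1 in either would decide the side of the limit.

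**Figure D2:**
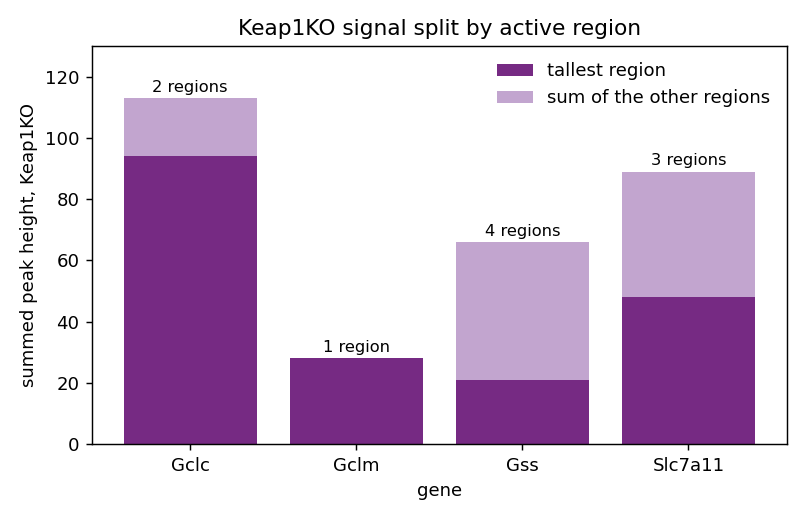
Keap1KO peak height summed over the active regions of each gene, divided into the tallest region (dark) and the sum of the others (light), with the number of regions above each bar. The tallest region gives 94 of 113 at Gclc, 28 of 28 at Gclm, 21 of 66 at Gss and 48 of 89 at Slc7a11.

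Glutathione synthetase was the lowest of the group in Keap1KO. Gss (GeneID 14854, chr2:155563183-155592706, minus strand) had a row height of 16.5 in Keap1KO, against 4.5 in wild-type and 5.5 in Nrf2KO. Its wild-type height was below that of Nrf2KO, unlike at the other 3 genes. Its 4 Keap1KO intervals lay 130, 1698, 7170 and 24642 bp into the gene (positions 155592576, 155591008, 155585536 and 155568064). The tallest region had a height of 21 in Keap1KO, and the other 3 had a mean of 15.

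The region deepest in Gss is also listed under its neighbour Acss2, an acetyl-CoA synthetase gene, for which it is the only region. That row gives its heights as 12 in Keap1KO against 4 in wild-type and 3 in Nrf2KO. The 3 regions listed under Gss alone then had a mean height of 18 in Keap1KO, against 4.67 in wild-type and 6.33 in Nrf2KO. On these, Keap1KO was 3.35-fold above wild-type (log2 1.75) and 2.59-fold above Nrf2KO (log2 1.37), and wild-type was 0.773 of Nrf2KO (log2 −0.37). The Keap1KO height of Gss equalled the median of all loci, and its ratio to wild-type was 0.01 above the all-locus median on the log2 scale.

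**Figure D3:**
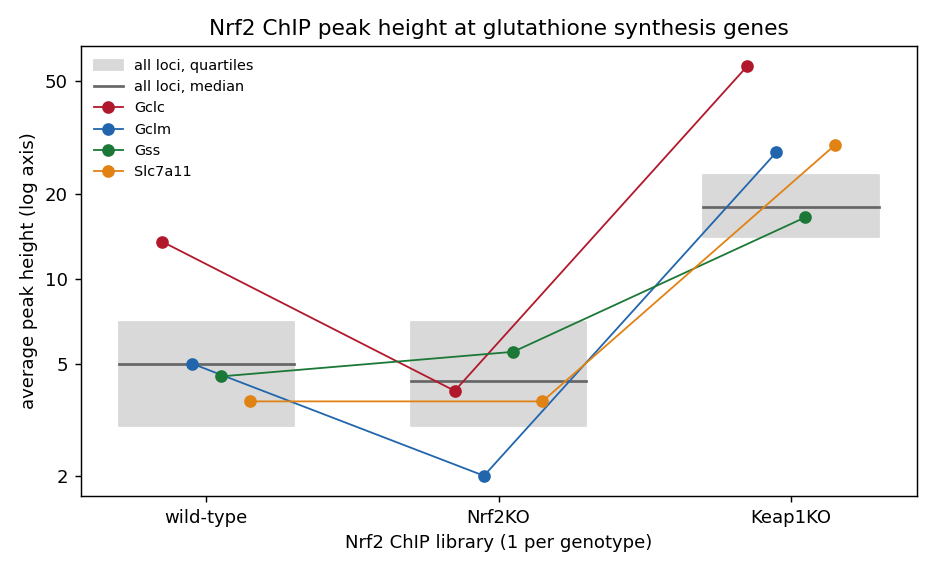
Average peak height per gene row in each ChIP library on a log axis, with 1 library per genotype; grey boxes show the quartiles and the grey line the median of the 1460 loci. In Keap1KO, Gclc (56.5), Slc7a11 (29.67) and Gclm (28) lie above the upper quartile and Gss (16.5) lies within the box, while in wild-type Gclc (13.5) is the single gene above the box.

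The order of the 4 genes depended on the quantity. By Keap1KO height it was Gclc, Slc7a11, Gclm and Gss, at ranks 31, 191, 219 and 709.5 of 1460. Among the 1940 gene rows, in which neighbours repeat a locus, the ranks were 49, 290, 326.5 and 1137.5 in the same order. By the Keap1KO over wild-type ratio it was Slc7a11, Gclm, Gclc and Gss, at ranks 123, 320, 521 and 719. By the wild-type over Nrf2KO ratio it was Gclc, Gclm, Slc7a11 and Gss, at ranks 106, 238, 862.5 and 1111. Gclc thus led on height and on the wild-type excess over Nrf2KO but came after Slc7a11 and Gclm in its ratio to wild-type. With a pseudocount of 5 in place of 1, Gclc (log2 1.73) came just before Gclm (1.72) in that ratio, after Slc7a11 (2.00). Without replicates, no spread is available to say which neighbours in these orders differ.

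For Keap1KO against wild-type, which asks how the signal differs with the Keap1 knockout genotype, all 4 genes were at least 2-fold higher. So were 88.0% of all loci, and none of the 4 genes was at least 2-fold lower, against 0.274%. The count is therefore near that of the table as a whole. Their median log2 ratio was 2.13 (range 1.75 to 2.72), against 1.74 over all loci. Single ratios stood above the all-locus median by 0.98 at Slc7a11, 0.54 at Gclm, 0.25 at Gclc and 0.01 at Gss, on the log2 scale. With each library scaled to the same median height, the median of all loci moved to 0.07, and 1 of the 4 genes was at least 2-fold higher in Keap1KO, against 11.2% of loci. This was Slc7a11 (log2 1.06), and Gclm then had 0.59, Gclc 0.21 and Gss 0.09. Such scaling sets the typical locus near 0, so these values restate how far each gene stood from it and show no direction of their own.

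For wild-type against Nrf2KO, which sets the signal of unmodified mice beside the background of the antibody, 2 of the 4 genes were at least 2-fold higher, against 18.8% of all loci. These were Gclc and Gclm. None of the 4 was at least 2-fold lower, against 8.29% of loci, and at Slc7a11 and Gss the Nrf2KO height was equal to or above that of wild-type. Wild-type was thus above Nrf2KO at 2 of the 4 genes and at 53.8% of loci. The median log2 ratio of the 4 was 0.50, against 0.19 over all loci. After scaling to equal medians Gclc had 1.44, Gclm 0.96 (below the 2-fold limit), Slc7a11 −0.18 and Gss −0.59, and 15.2% of loci were at least 2-fold higher.

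For Keap1KO against Nrf2KO all 4 genes were at least 2-fold higher, against 85.3% of loci, a share near which the count says little, and none was at least 2-fold lower (0.137% of loci). The median log2 ratio was 2.99 for the 4 and 1.91 for all loci. Gclc, Gclm and Slc7a11 stood 1.62, 1.37 and 0.81 above the all-locus median, whereas Gss stood at −0.53 relative to it. With a pseudocount of 5 the log2 ratios to Nrf2KO were 2.77 at Gclc, 2.24 at Gclm and 2.00 at Slc7a11, with 1.35 over all loci, and that of Slc7a11 to wild-type was 2.00. Scaling to equal medians moved the median of all loci to 0.08, with Gclc at 1.65, Gclm at 1.54, Slc7a11 at 0.88 and Gss at −0.50, and 19.6% of loci at least 2-fold higher. The negative value at Gss restates its place below the typical locus. The comparisons share libraries and are not separate evidence.

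Around these 4 genes, 23 further genes of cystine and cysteine supply, transsulfuration, the γ-glutamyl cycle, glutathione reduction and their support were looked up. Of these, 4 had a row (17.4%), against 7.67% of RefSeq protein-coding genes. When the 23 were picked, earlier results of these data were already known. The higher share, and the comparisons of these 4 genes with all loci below, are therefore descriptive and do not test for enrichment. Slc3a2, the heavy chain that pairs with the Slc7a11 protein in the cystine exchanger, reached 21 in Keap1KO, against 3 in wild-type and 6 in Nrf2KO, at a region 10185 bp into the gene. As at Slc7a11, wild-type was not above Nrf2KO there. Slc1a4, a neutral amino acid transporter, had 20 in Keap1KO against 7 in wild-type and 1 in Nrf2KO, and its wild-type over Nrf2KO fold of 4.00 rests on a height of 1.

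Gsr, which reduces oxidized glutathione, reached 27 in Keap1KO, against 5.5 in wild-type and 3.5 in Nrf2KO, over regions 122 bp and 714 bp into the gene. G6pdx, which supplies NADPH for that reduction, had 27.5 in Keap1KO against 5 in wild-type and 2 in Nrf2KO, with a tallest Keap1KO region of 40, and its locus is also listed under Ikbkg. All 4 of these genes were at least 2-fold higher in Keap1KO than in wild-type, as were 88.0% of all loci, with folds of 5.50 at Slc3a2, 4.75 at G6pdx, 4.31 at Gsr and 2.62 at Slc1a4. Their median log2 ratio was 2.18, against 1.74 over all loci. For wild-type over Nrf2KO, 2 of them, Slc1a4 and G6pdx (2.00-fold), were at least 2-fold higher, against 18.8% of loci. G6pdx, with heights of 5 and 2 like Gclm, lay exactly at the 2-fold limit. The other 19 genes had no row, among them Cth and Cbs of transsulfuration, Ggt1 and Chac1 of glutathione breakdown, and the exchange transporter gene Slc1a5. Being without a row means only that no interval was listed near the gene.

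**Figure D4:**
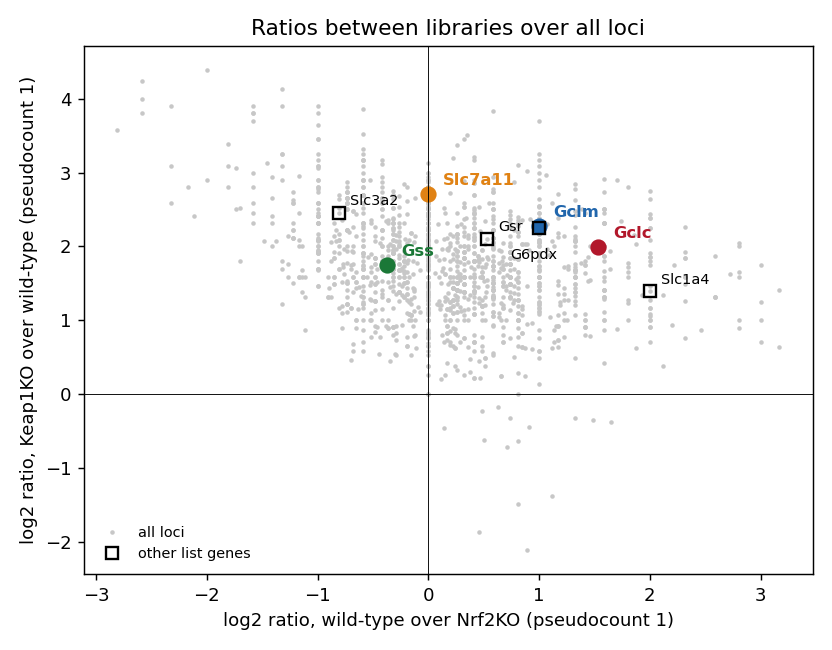
Log2 ratio of Keap1KO over wild-type (vertical) against that of wild-type over Nrf2KO (horizontal), pseudocount 1, for the 1460 loci (grey), the 4 glutathione synthesis and cystine uptake genes (colour) and the other listed genes of the pathway (squares). The axes share the wild-type library. Gclc and Gclm lie right of 1 or on it, Slc7a11 lies at 0 with the highest vertical value of the 4, and Gss lies left of 0.

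The loci most like each gene were found by Euclidean distance in log2(height + 1) over the 3 libraries. For Gclc these were a locus listed under Creld1, Il17rc and Prrt3 (56 in Keap1KO against 13 in wild-type and 4 in Nrf2KO, distance 0.052), Dhx57 (0.191) and the locus of Mir1957 and the glucose transporter gene Slc2a1 (0.313). For Gclm they were Gm6999 and Usp48, with the same 3 heights and a distance of 0, and the locus of G6pdx and Ikbkg (0.025). For Slc7a11 they were Alcam (0.154), Mll1 (0.231) and Rnf144b (0.237), at each of which wild-type and Nrf2KO were both at 4. For Gss they were Fam69a (0.106), Gm9895 (0.130) and the locus of Anxa11 and LOC101055871 (0.132). With 3 values per locus and low heights, such likeness is common in the table and describes the profile only.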

How the data were processed

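The sources name BWA, MACS2 2.1.0 and the build mm10 in the submitters' processing notes, without their roles or parameters. The values are signal: the deposited average peak height of each ChIP library per gene and, per the file headers, the tallest height of a gene. Other columns that the authors deposited are flags of called intervals and numbers of intervals and regions. Neither scaling nor depth is stated in the labels or the header. In the 1681 rows with 1 region, every height was whole and the tallest height equalled the highest height among the libraries with a call. No per-sample column was left unmapped.

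Positions were computed from gene start, strand and listed distance. Intervals were merged to the stated number of regions (largest distance merged 704 bp). Loci were solved by least squares from the row means with numpy 2.4.6 (largest residual 0.00186), and sums were set to whole numbers except in 3 loci that were not within 0.06 of whole. The solution was tested on simulated data. Where a gene had several loci, the one with the highest mean over the libraries stood for it. Ratios are on the log2(height + 1) scale, and 2-fold is a rule of size. No test was made. Alternatives were pseudocounts of 0.5 and 5, loci of high mean height, gene rows, scaling to equal medians, other call rules and the looser motif.

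Promoter windows and gene identifiers are from RefSeq, GRCm38.p6, and 1878 of the 1940 rows matched by identifier. The named genes were the 4 genes, pathway genes with a row, genes sharing an interval with one of the 4, and the 3 most similar loci of each. Co-listed genes such as Mir1957 are named as the table pairs them, and the genes without a row that are named come from the pathway list. The genes and lists were chosen with earlier results of these data known.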

Additional observations from a re-analysis of the deposited data

How the results depend on the processing

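No paired analysis was possible because there is a single library per genotype, and for the same reason no library could be left out. The planned shorter window around each interval was not run, since it needs a genome sequence. The number of the 4 genes at least 2-fold higher in Keap1KO than in wild-type went from 4 to 1 with the libraries scaled to equal medians, while the share of all loci went from 88.0% to 11.2%. For Keap1KO over Nrf2KO it went from 4 to 2 and the share from 85.3% to 19.6%. For wild-type over Nrf2KO it went from 2 to 1 with this scaling (15.2% of loci, against 18.8%) and to 1 with a pseudocount of 5 (3.97%), which also took the pathway list from 4 to 2 of its 8 genes with a row. Scaling lowers Keap1KO ratios of all loci, and a larger pseudocount shrinks all ratios, by construction. The log2 ratio of Gss for Keap1KO over Nrf2KO, 1.37, became −0.50 with scaling, as it must for a locus that far below the all-locus median. Counting calls only where the mean height of the locus was at least the median called height of 18 took the number of genes with a wild-type call from 1 to 0, since Gclc has a mean of 13.5 over 2 regions. The height of its called region is not given, so this does not show that the call was low. The Keap1KO height of Gclc ranked 31 among loci and 49 among gene rows. With TGANNNNGC, 2 promoter windows held a match, against 1 with TGACNNNGC. Of 122 values under an alternative, 94 moved by less than 1.5-fold, 27 moved by more and 1 changed sign. Unknown depth and low heights limit every ratio between libraries.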
